A study of Drosophila melanogaster with 21 samples.

Results

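The cytosolic ribosomal protein genes of Drosophila melanogaster were followed in embryos with altered Topoisomerase 3 beta, an enzyme that relieves torsion in DNA and also acts on RNA. Members were all genes whose symbol starts with RpL or RpS, which gave 92 genes, 54 named for the large subunit and 38 for the small, of 23932 features in the total RNA table. Total RNA was counted in 12 samples of 4 genotypes, 3 replicates each: Top3b26, an allele in which the Top3beta transcript is low; Y332F (labelled Top3bY332F), named for the exchange of the catalytic tyrosine; delRGG (labelled Top3b[delta]RGG), which lacks the RNA-binding RGG box; and wild type. RNA bound to eGFP-tagged protein was recovered by immunoprecipitation (RIP) in 3 samples of Top3b-Y332F-eGFP embryos (labelled Top3b-Y332F::eGFP) and 6 samples of Top3b-eGFP embryos (labelled Top3b::eGFP). The RIP table lists only genes with at least 2 transcripts and holds 31 of the members, 17 large and 14 small, among 2168 genes. Age of the embryos, number of animals per sample, and driver or clone of origin were not given, so p-values measure the spread between these samples.

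Ribosomal proteins join ribosomal RNA in the nucleolus to form the small subunit, which decodes the mRNA, and the large subunit, which joins amino acids. Because the proteins are needed in matched amounts, their mRNAs are usually made together, and their translation is set as a group by growth signalling through a pyrimidine-rich start of the mRNA. In flies, loss of a single copy of many of these genes slows growth (the Minute phenotype), and several members exist as a broadly used gene with a paralog best known from the gonads.

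Total counts ran from 22400118 to 31125584 per sample. Top3beta itself had 22.1 ± 1.11 CPM (read counts relative to the scaled library size) in Top3b26, 125 ± 19.1 CPM in Y332F, 134 ± 8.35 CPM in delRGG and 114 ± 17.0 CPM in wild type (SD, n = 3 each), low in Top3b26 alone. The samples also differed in markers of late embryonic tissue. The mean log2 CPM of 24 muscle, neuron and cuticle markers, none of which was at 0 throughout, had a median of 2.58 in Top3b26 (range 2.44 to 3.83), 4.24 in Y332F (3.59 to 4.36), 5.34 in delRGG (3.39 to 6.73) and 6.60 in wild type (6.22 to 7.76). All 12 muscle markers were called lower than in wild type in Top3b26 and in Y332F, as were 6 of 6 and 5 of 6 neuron markers and all 6 cuticle markers, while none of the 24 was called in delRGG. Of 7 germline markers tested, 4 were called higher in Top3b26, 2 in Y332F and 1 in delRGG, and of 9 early or maternal markers 5, 4 and 0. Over all features, 23.5%, 15.3% and 3.17% were called higher in Top3b26, Y332F and delRGG, and 33.7%, 28.2% and 2.7% lower. Among FlyBase genes averaging at least 100 CPM, 43.3%, 31.2% and 4.54% were called higher. In whole embryos, fewer cells of a type and less RNA per cell cannot be told apart. Age of the embryos was not given, so age at collection and genotype cannot be told apart either. Column names of wild type and of the mutants start with different letters in the deposited table, and what the letter marks and the genotype cannot be told apart.

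Most ribosomal protein mRNAs kept close to their wild-type level in all 3 mutants. Of 86 members that passed the filter on low counts, 83 (96.5%) lay within 1.5-fold of wild type in each comparison. That share was near the one of FlyBase genes averaging at least 100 CPM, which was 93.0% in Top3b26, 95.8% in Y332F and 98.2% in delRGG, and above that of all features, 57.9%, 61.5% and 68.8%. In edgeR's quasi-likelihood test, with p adjusted over all 10238 features and called under 0.05, 2 were higher and 9 lower in Top3b26, where 57.1% of all features were called (23.5% higher and 33.7% lower). In Y332F 4 were higher and 6 lower, beside 43.5% of all features (15.3% and 28.2%), and in delRGG 1 was higher and 2 lower, beside 5.87% of all features (3.17% and 2.70%). The 3 comparisons share the wild-type samples. In all, 73 of the 86 were called in none of them, whereas 6481 of the 10238 features (63.3%) were called in at least 1 mutant.

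The median log2 fold change of the members was -0.09 in Top3b26, -0.07 in Y332F and -0.11 in delRGG, beside a median over all features of -0.04 in each. FlyBase genes averaging at least 100 CPM had a median log2 fold change of 0.22 in Top3b26, with 1106 of 2557 (43.3%) called higher and 173 (6.77%) lower, whereas 2 of the 81 members at that level were called higher and 8 lower. In Y332F 797 such genes (31.2%) were called higher and 119 (4.65%) lower, against 4 members higher and 4 lower. In delRGG the counts were 116 genes (4.54%) higher and 38 (1.49%) lower, against 1 member higher and 0 lower. Scaling by total counts alone, which moved the median of all features by -0.10 in Top3b26 and -0.09 in Y332F, gave 1 member higher and 26 lower in Top3b26, and 2 higher and 17 lower in Y332F. Under that scaling the median was -0.19 for members and -0.13 for all features in Top3b26, and -0.16 and -0.12 in Y332F. Shares of all features called under that scaling, or with a sample left out, are not given here. Member counts in those fits therefore cannot be read as particular to these genes. With the late marker score as a covariate, edgeR called 0 members in Top3b26 (10 at an unadjusted p under 0.05), 2 in Y332F and 3 in delRGG, beside 2.32%, 2.81% and 3.72% of all features. Neither the scores of Top3b26 nor those of Y332F overlap wild type, so that score and genotype cannot be told apart in those comparisons. Of the members called in Top3b26, the log2 fold change with the covariate was at least as far from 0 for RpL21 (-0.55), RpS12 (-0.36), RpS13 (-0.31) and RpL35 (-0.26). It was nearer to 0 for RpS21 (-1.13), RpS19a (-0.38), RpLP0 (0.16) and RpL6 (-0.09), and RpL28 was at 0.02. Without the covariate the count fell to 6 in Top3b26 without Top3b26 replicate 1 or without replicate 3 and to 7 without wild-type replicate 2. In Y332F it fell to 4 without Y332F replicate 1 or wild-type replicate 3, and to 5 without Y332F replicate 2.

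**Figure D1:**
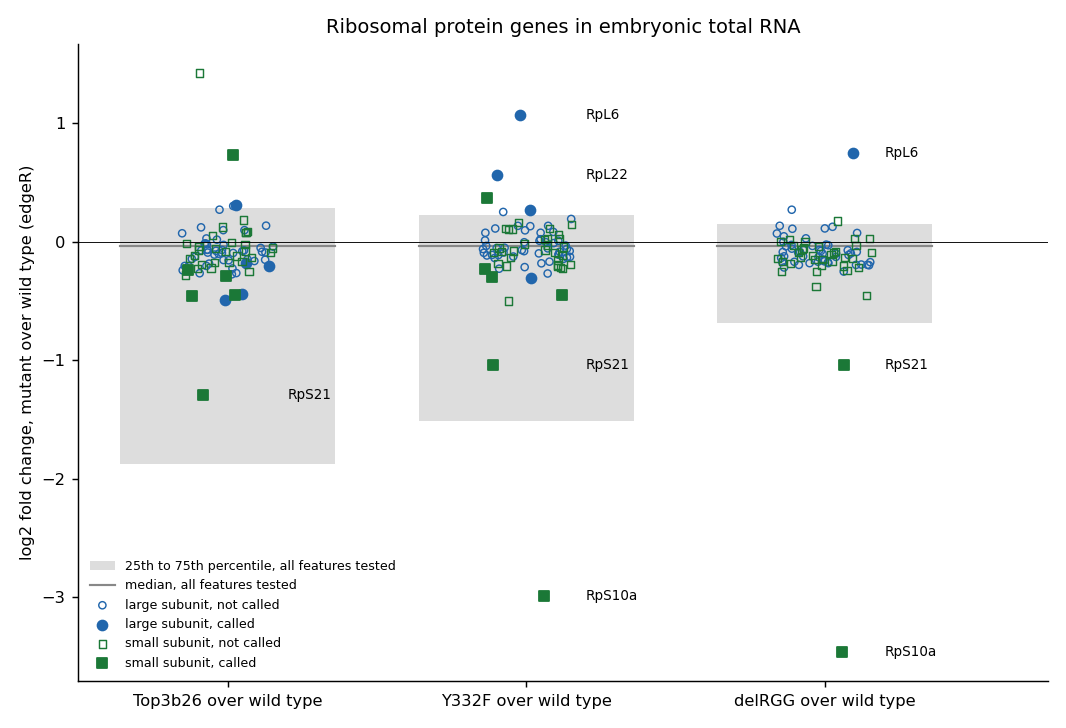
Log2 fold change of each tested ribosomal protein gene over wild type (y axis, edgeR) in Top3b26, Y332F and delRGG. Circles are large-subunit and squares small-subunit genes, filled where called, and grey boxes span the 25th to 75th percentile of all 10238 features. The boxes reach down to -1.87, -1.52 and -0.69, so RpS21 lies within them in Top3b26 and Y332F. Most members lie near 0, with RpS21 apart below them in all 3 comparisons and RpL6 above them in Y332F and delRGG. RpS10a, at the edge of detection, lies lower still in Y332F (-2.98) and delRGG (-3.46).

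As a share of all counts, the 92 genes together made up 6.31 ± 0.200% in Top3b26, 6.50 ± 0.0177% in Y332F, 6.53 ± 0.354% in delRGG and 7.17 ± 0.577% in wild type (SD, n = 3 each). Single samples ranged from 6.12 to 6.52% in Top3b26, 6.49 to 6.52% in Y332F, 6.12 to 6.79% in delRGG and 6.59 to 7.75% in wild type. Every Top3b26 and Y332F sample was thus below every wild-type sample, and the delRGG samples overlapped wild type. No test was made of this sum over chosen genes.

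**Figure D2:**
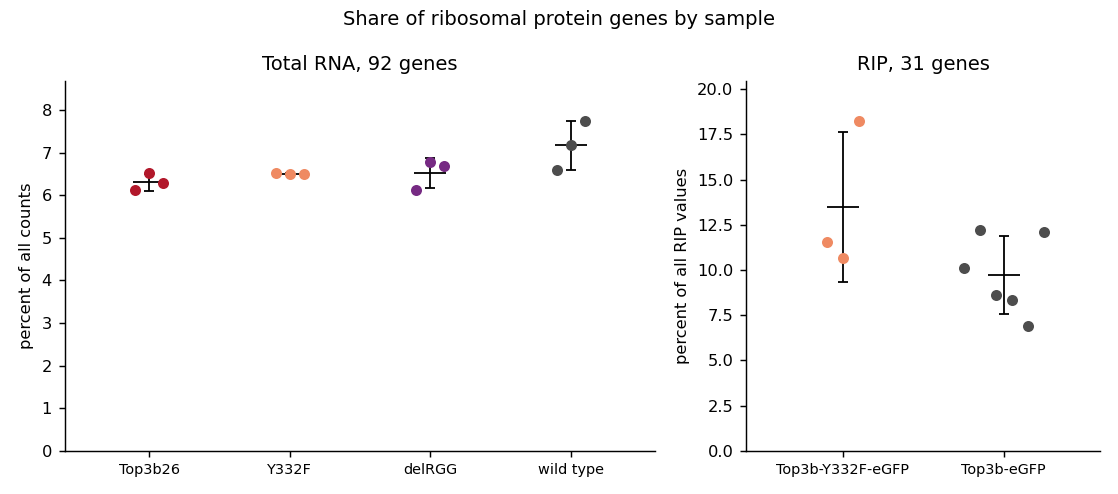
Share of ribosomal protein genes in each sample: percent of all counts in total RNA (left, 92 genes) and percent of all RIP values (right, 31 genes). Points are samples and the bars give the mean and SD; the wild-type points run from 6.59 to 7.75%, and 1 of 3 Top3b-Y332F-eGFP samples lies above the rest at 18.3%.

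RpS21 (FBgn0015521) was lower in all 3 mutants. It encodes a small-subunit protein whose loss in fly larvae leads to overgrowth of blood-forming tissue. It had 71.3, 65.1 and 54.3 CPM in Top3b26, 61.7, 73.2 and 92.3 CPM in Y332F, 66.5, 86.0 and 75.8 CPM in delRGG, and 144, 143 and 182 CPM in wild type. All 9 mutant samples lay below all 3 wild-type samples. Its log2 fold change was -1.30 in Top3b26 (SE 0.16, edgeR adjusted p 0.000385), -1.04 in Y332F (SE 0.16, adjusted p 0.00222) and -1.04 in delRGG (SE 0.16, adjusted p 0.00393). The calls held with any single library left out. With the late marker score as covariate the values were -1.13 in Top3b26 (edgeR adjusted p 0.0941) and -0.92 in Y332F (edgeR adjusted p 0.0783), so that the call remained in delRGG alone. Between the mutants the log2 differences in RpS21 ran from 0.01 to 0.26 (SE 0.16 each) and none was called, with overlapping samples. The RefSeq gene table of Release 6 places no other gene over RpS21 or over RpL6.

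RpL6 (FBgn0039857), a large-subunit protein, went opposite ways in the alleles. It had 192, 173 and 136 CPM in Top3b26, 481, 523 and 472 CPM in Y332F, 381, 476 and 326 CPM in delRGG, and 216, 231 and 259 CPM in wild type. The Y332F and delRGG samples all lay above wild type and the Top3b26 samples all below it. Against wild type the log2 fold change was 1.06 in Y332F (SE 0.15, edgeR adjusted p 0.00124), 0.74 in delRGG (SE 0.15, adjusted p 0.0132) and -0.49 in Top3b26 (SE 0.15, adjusted p 0.0154). Tested directly, RpL6 was higher by 1.56 in Y332F than in Top3b26 (edgeR adjusted p 8.3e-05) and by 1.24 in delRGG than in Top3b26 (edgeR adjusted p 0.000372), while delRGG and Y332F differed by -0.32 (SE 0.15, edgeR adjusted p 0.235). The rises held with any single library left out. Fitted on delRGG and wild type alone, the delRGG value was 0.81 (edgeR adjusted p 0.0755). The fall in Top3b26 was not called without Top3b26 replicate 2 or 3 or wild-type replicate 2 or 3, at values from -0.47 to -0.33, and was -0.09 with the late marker covariate.

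RpL22 (FBgn0015288), a large-subunit protein that binds ribosomal RNA, was raised in Y332F. It had 233, 209.9 and 194 CPM in Y332F, against 142, 145 and 145 CPM in wild type, higher by 0.56 on the log2 scale (edgeR adjusted p 0.00683, SE 0.11), a call that was kept under all 21 alternatives. In Top3b26 it had 169, 135 and 136 CPM, and in delRGG 162, 164 and 129 CPM, around the wild-type level. RpL22 was higher in Y332F than in Top3b26 by 0.53 (edgeR adjusted p 0.0138), a call lost without Top3b26 replicate 2 or 3 or Y332F replicate 1 (0.46 to 0.52). The delRGG value lay below Y332F by a log2 difference of -0.49 (edgeR adjusted p 0.0478). That call, the single one among members between these alleles, where 1.17% of all features were called lower and 1.29% higher, was lost in 8 of 12 fits that left out a library (-0.55 to -0.42, adjusted p up to 0.165). It was kept without Top3b26 replicate 1, Y332F replicate 3, delRGG replicate 3 or wild-type replicate 3, and 3 members were called without delRGG replicate 3. RpL22 overlaps lncRNA:CR42491 in the RefSeq table, at 1.45 ± 0.425 CPM in Y332F and 5.12 ± 2.12 CPM in wild type (SD, n = 3 each). Its paralog RpL22-like had 0 to 9 counts in any sample and was not tested.

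**Figure D3:**
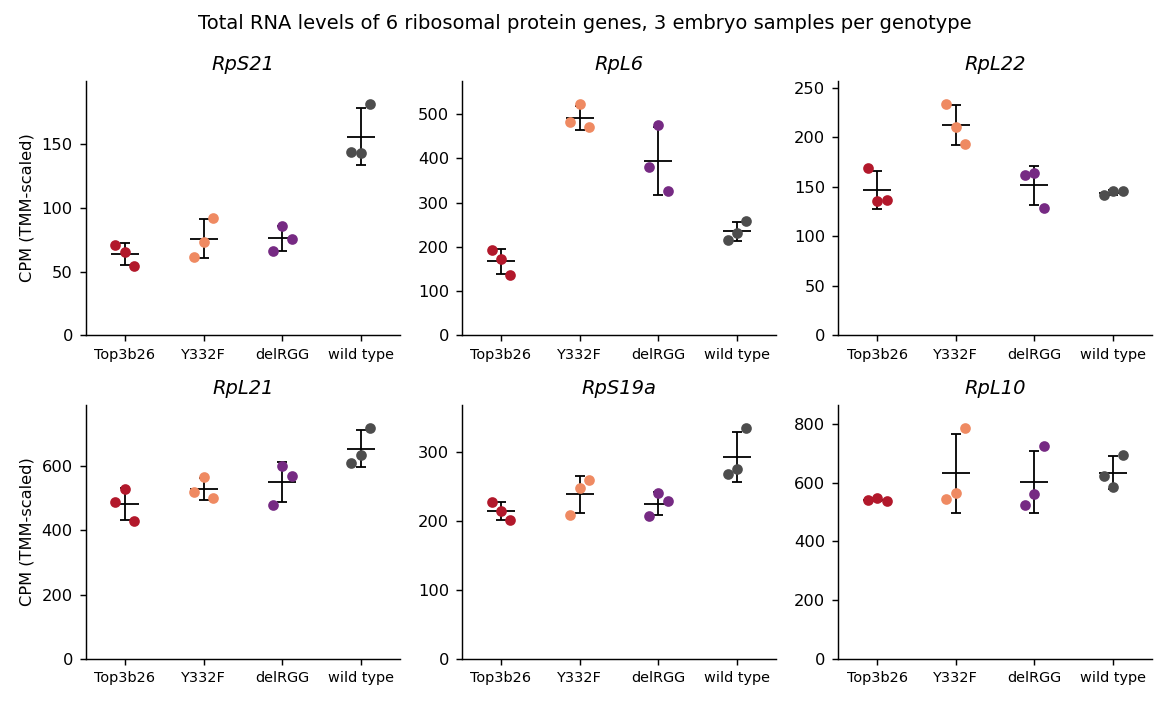
TMM-scaled CPM (y axes from 0) of RpS21, RpL6, RpL22, RpL21, RpS19a and RpL10 in each total RNA sample by genotype. Points are samples and bars the mean and SD of 3; RpS21 is lower in every mutant sample than in every wild-type sample, RpL6 is highest in Y332F and delRGG, and RpL10 overlaps between all genotypes except Top3b26 and wild type.

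Smaller differences concerned RpL21, RpS19a and RpLP0. RpL21, a large-subunit protein, had 489, 528 and 430.2 CPM in Top3b26, 519, 567 and 499 CPM in Y332F, and 609.7, 635 and 719 CPM in wild type. RpS19a, needed for maturation of the small subunit, had 227, 214 and 202 CPM in Top3b26, 208, 248 and 259 CPM in Y332F, and 269, 275 and 335 CPM in wild type. In both genes neither of these mutants overlapped wild type, while Top3b26 and Y332F overlapped each other. RpL21 fell by 0.44 in Top3b26 and by 0.31 in Y332F (edgeR adjusted p 0.00654 and 0.0397), and RpS19a fell by 0.45 in Top3b26 and by 0.30 in Y332F (edgeR adjusted p 0.00547 and 0.0418). In delRGG edgeR called neither gene, while DESeq2 called RpS19a lower there (-0.38, DESeq2 adjusted p 0.00974). The Top3b26 falls held with any single library left out. The Y332F falls were lost in 9 of 12 such fits each: RpL21 was kept without delRGG replicate 1 or 2 or wild-type replicate 1, and RpS19a without Y332F replicate 3, delRGG replicate 1 or wild-type replicate 1. Where lost, the values ran from -0.29 to -0.24 for RpL21 and from -0.29 to -0.19 for RpS19a. RpLP0, the base of the ribosomal stalk, averaged 1154 ± 12.1 CPM in Top3b26 and 1120.3 ± 23.6 CPM in Y332F, against 931 ± 12.9 CPM in wild type (SD, n = 3 each). It rose by 0.31 in Top3b26 and by 0.27 in Y332F (edgeR adjusted p 0.0129 and 0.0328). Both calls were lost with total-count scaling (0.21 and 0.18). The Top3b26 call was also lost without Top3b26 replicate 1 or 3 (0.32 and 0.33), and the Y332F call without any Y332F replicate or wild-type replicate 1 or 3 (0.26 to 0.35).

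A further 5 calls against wild type were small, and all but RpS12 in Y332F were named after their values were seen. RpS13, RpS12, RpL35 and RpL28 fell in Top3b26 by 0.29, 0.24, 0.21 and 0.18 (edgeR adjusted p 0.0175 to 0.0430), and RpS12, which in flies also takes part in the sensing of cells with too little ribosomal protein, fell by 0.23 in Y332F (edgeR adjusted p 0.0345). Each was unstable when single libraries were left out. RpS13 was lost without Top3b26 replicate 1 or 3, delRGG replicate 3 or wild-type replicate 2 or 3 (-0.24 to -0.20). RpS12 in Top3b26 was lost without any Top3b26 replicate, delRGG replicate 3 or wild-type replicate 2 or 3 (-0.24 to -0.14). In Y332F it was lost in all such fits but those without delRGG replicate 1 or wild-type replicate 1 (-0.24 to -0.12, adjusted p up to 0.268). RpL35 was kept only without Top3b26 replicate 2 or Y332F replicate 3, and RpL28 only without Y332F replicate 3 or delRGG replicate 1, and where lost the values ran from -0.20 to -0.11 and from -0.17 to -0.09 (adjusted p up to 0.321 and 0.215). RpL28, a large-subunit protein that overlaps nSMase in the RefSeq table, was higher by 0.29 in delRGG than in Top3b26 (edgeR adjusted p 0.0149) and by 0.27 in Y332F than in Top3b26 (edgeR adjusted p 0.0341). The delRGG call was lost without Top3b26 replicate 2 or delRGG replicate 1 (0.29 and 0.24), and the Y332F call in 6 of 12 such fits (0.24 to 0.33), those without any Top3b26 replicate, Y332F replicate 1 or 3, or wild-type replicate 2. nSMase had 79.3 ± 3.92 CPM in Top3b26 and 63.1 ± 4.32 CPM in wild type (SD, n = 3 each).

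Between mutants, 3 members were higher (RpL6, RpL22 and RpL28) and 1 lower (RpS10a) in Y332F than in Top3b26, beside 3.15% of all features called higher and 4.11% lower. Without Top3b26 replicate 2 or 3, or without Y332F replicate 1, 1 was higher and 1 lower. In delRGG 2 were higher (RpL6 and RpL28) and 2 lower (RpS10a among them) than in Top3b26, beside 17.3% of all features called higher and 10.9% lower, and without delRGG replicate 3 there were 2 higher and 8 lower.

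RpS10a, known from the testis, was at the edge of detection. It had 38, 23 and 33 counts in Top3b26, 2, 2 and 0 in Y332F, 2, 0 and 1 in delRGG, and 9, 11 and 13 in wild type. The ratio of scaled counts to wild type was 2.70 in Top3b26 (95% exact interval 1.80 to 4.15), 0.117 in Y332F (0.0301 to 0.329) and 0.0816 in delRGG (0.0160 to 0.260), intervals that cover counting error only. RpS10a was called lower in Y332F and delRGG than in wild type (edgeR adjusted p 0.0126 and 0.0228) and than in Top3b26 (adjusted p 0.00352 and 0.00187). The delRGG call against wild type was lost without delRGG replicate 2 or 3 or wild-type replicate 2 or 3 (fitted log2 values of -3.46 to -2.95, adjusted p up to 0.0631). In Top3b26 against wild type it was not called (edgeR adjusted p 0.0558), but was called with those groups alone (adjusted p 0.0166), without Y332F replicate 3 (0.0287) and without delRGG replicate 1, 2 or 3 (0.0435, 0.0404 and 0.0367). RpS10a lies within the span of tau in the RefSeq table, and tau, a neuronal gene, had 0.566 ± 0.448 CPM in Top3b26, 0.955 ± 0.476 in Y332F, 4.39 ± 3.91 in delRGG and 13.4 ± 8.66 in wild type (SD, n = 3 each). The strand setting of the counting was not given, so reads of overlapping genes cannot be told apart. Of 3 testis markers with enough counts to test, none was called in any mutant against wild type.

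Among the 27 members with a paralog in the list, 21 were tested. RpL10Aa had 0 counts in all 12 samples, which allows up to 3 counts in each, and RpL7-like, RpL37-2, RpS28a, RpS28-like and RpL22-like had 0 to 9 counts per sample; with these 6 the untested members are complete. RpL24 and RpL24-like, RpL34a and RpL34b, RpS15Aa and RpS15Ab, RpS14a and RpS14b, RpS10b, RpL7, RpL10Ab, RpL37-1, RpS28b, RpS19b and RpLP0-like were called in no mutant against wild type with the settings used throughout. Under other settings some were: RpL10Ab and RpS14a in Top3b26 with total counts or the 50-count filter (-0.27 to -0.25), RpS14a in Y332F with the same (-0.29 and -0.26), RpS28b in Y332F with total counts (-0.29), and RpL10Ab and RpS14a in delRGG with DESeq2 (-0.17 and -0.26). RpL10Ab was called in Top3b26 with DESeq2 too (-0.16), and RpS14a with the compared groups alone (-0.23). Leaving out Y332F replicate 3 called RpL24-like in Top3b26 and Y332F (0.31 and 0.38), and leaving out delRGG replicate 3 called RpS14b in both (0.17 in each) and RpL34a in Top3b26 (0.21). RpLP0-like is a member by its symbol only, and the other genes named -like were likewise taken in by symbol. RpS14a and RpS14b are neighbouring near-identical genes, so their division of reads is uncertain.

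Other genes of ribosome production were taken from a list of 41. In Top3b26 7 of these were called higher and 6 lower, beside 23.5% and 33.7% of all features. In Y332F 4 were higher and 5 lower, beside 15.3% and 28.2%. In delRGG 1 was higher and 1 lower, beside 3.17% and 2.7%. In RIP 1 of 9 tested was called, and lower, beside 13.0% of all genes called higher and 16.7% lower. Polr1B, the second largest subunit of RNA polymerase I, had 27.5 ± 0.709 CPM in Top3b26 and 51.2 ± 0.953 CPM in wild type (SD, n = 3 each), lower by a log2 value of -0.90. Dbp45A, an RNA helicase, fell in Top3b26 by 0.95, in Y332F by 0.95 and in delRGG by 0.43 (edgeR adjusted p 0.0241 in delRGG), and Rrp4, an exosome subunit, rose in Top3b26 by 1.16, in Y332F by 0.49 and in delRGG by 0.63 (edgeR adjusted p 0.0172 in delRGG). Of 2 small-subunit proteins that do not follow the naming rule, sta rose by 0.24 in Top3b26 (edgeR adjusted p 0.0386) and was not called in Y332F or delRGG, and Rack1 was called in none. Of 12 growth-control genes, 1 was called higher and 3 lower in Top3b26, 3 lower in Y332F and 1 lower in delRGG. In RIP 1 of 8 tested was higher and 2 lower. The shares of all features given above for the list of 41 stand beside these counts too. Xrp1, a transcription factor induced in cells short of a ribosomal protein, had 9.07 ± 4.37 CPM in Top3b26 and 8.71 ± 0.986 CPM in Y332F, against 49.8 ± 28.4 CPM in wild type (SD, n = 3 each), with edgeR adjusted p 0.0036 and 0.00742. Thor, the inhibitor of cap-dependent translation, fell by 1.13 in Top3b26 and by 1.75 in Y332F, and S6k, the kinase of ribosomal protein S6, fell by 0.24, 0.32 and 0.31 in Top3b26, Y332F and delRGG.

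In the immunoprecipitates, several ribosomal protein mRNAs had higher scaled values with the Y332F form than with unmutated Top3b-eGFP. Values are the authors' normalized signal per transcript, summed per gene and scaled to equal median ratios between samples. The labels list no input or untagged sample for RIP, so RNA level in the tagged embryos and recovery with the protein cannot be told apart. In limma on log2(value + 1), adjusted over all 2168 genes, 8 of the 31 members were called higher and 0 lower in Top3b-Y332F-eGFP, beside 13.0% of all genes called higher and 16.7% lower. At an unadjusted p under 0.05 there were 13 members (41.9%), of which RpL3 alone was lower, beside 941 of all genes (43.4%). Of the 8, 6 were among the 17 large-subunit and 2 among the 14 small-subunit genes. The median log2 difference was 0.41 for the members and 0.01 for all genes, and 27 of 31 lay above 0. Quantile normalization instead gave 9 members higher and 2 lower. The Y332F and unmutated samples did not overlap, with Y332F higher, in 7 of 31 members, beside 12.6% of all genes.

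**Figure D4:**
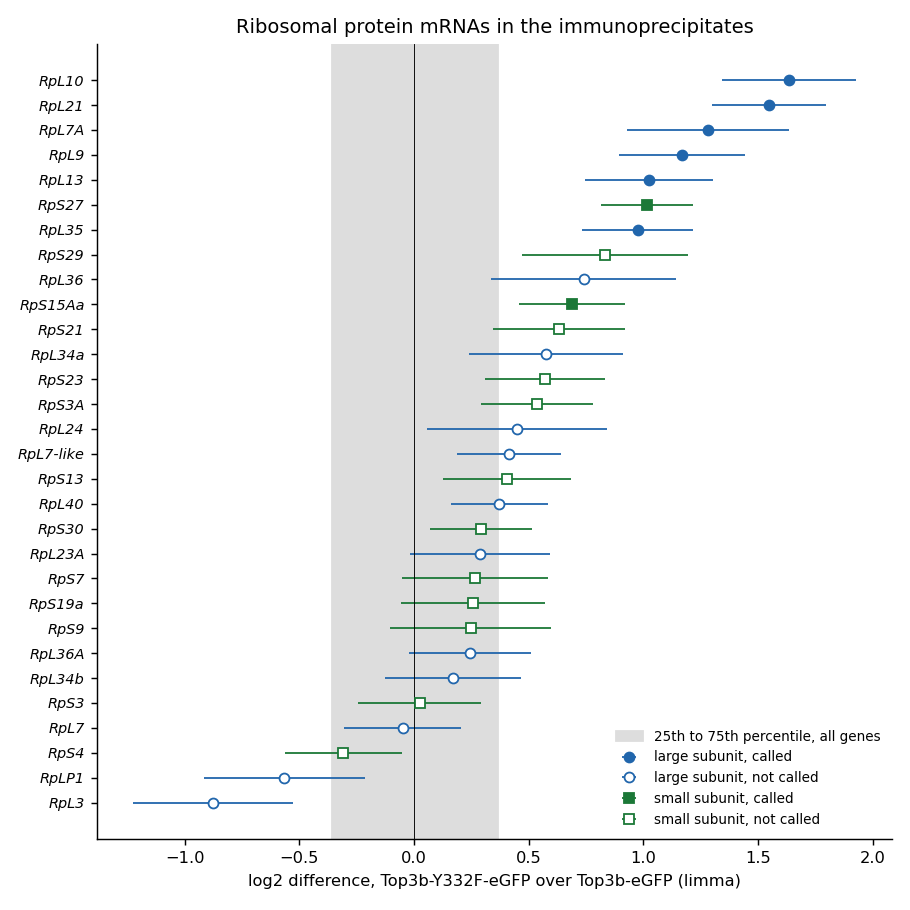
Log2 difference of each ribosomal protein mRNA, Top3b-Y332F-eGFP over Top3b-eGFP (x axis, limma, bars are SE). Circles are large-subunit and squares small-subunit genes, filled where called, for the 30 members reported singly, and the grey band spans the 25th to 75th percentile of all 2168 genes; RpL10 and RpL21 lie farthest to the right and RpL3 farthest to the left.

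Top3b-Y332F-eGFP sample 3 stood apart in these mRNAs. In Top3b-Y332F-eGFP sample 3, 30 of the 31 members lay above their own mean over all samples, by a median of 0.97 on the log2 scale, against 0.11 in sample 1 and -0.08 in sample 2. In the Top3b-eGFP samples that median ran from -0.69 in sample 5 to 0.39 in sample 6. Sample 3 of Top3b-Y332F-eGFP and sample 6 of Top3b-eGFP carry another style of column name than the other 7, and were matched to their labels by a bare number. Without Top3b-Y332F-eGFP sample 3, 3 members were called (RpL10, RpL21 and RpS27) and the median was 0.13. Without both of those samples 5 were called and the median was 0.21. Shares of all genes called in these reduced fits are not given here, and fewer samples weaken the test for every gene. The drop in calls therefore cannot be read as particular to these mRNAs.

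RpL10 (FBgn0024733), a late-joining large-subunit protein needed for subunit joining in yeast, and RpL21 (FBgn0032987) differed most. RpL10 had scaled values of 12592, 11611 and 21499 in Top3b-Y332F-eGFP samples 1 to 3, against a lowest of 3054, a median of 4508 and a highest of 8299 in Top3b-eGFP. RpL21 had 13635, 13328 and 22329 in Top3b-Y332F-eGFP, against 3656, 5637 and 7656 in the same order in Top3b-eGFP. For both genes all 3 Y332F samples lay above all 6 unmutated samples. The log2 difference was 1.63 for RpL10 (SE 0.29, limma adjusted p 0.00421) and 1.55 for RpL21 (SE 0.25, limma adjusted p 0.00401). Both calls were kept under all 21 alternatives, with differences from 1.36 to 1.86 and from 1.28 to 1.82.

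RpL7A, RpL9, RpL13 and RpL35 of the large subunit, and RpS27 of the small, also lay above without overlap. RpL7A had 21579.5, 21189 and 33087 in Top3b-Y332F-eGFP, against a lowest of 5439, a median of 10136 and a highest of 18603 in Top3b-eGFP. RpL9 had 6894, 6803 and 14085, against 2575, 3950.3 and 5258 in Top3b-eGFP. RpL13 had 9041, 7931 and 16140.3, against 3791, 5172 and 7165 in Top3b-eGFP. In these 3 genes every Y332F sample stood above the highest unmutated one, and sample 3 well above samples 1 and 2. The differences were 1.28, 1.17 and 1.02 (limma adjusted p 0.0178, 0.00955 and 0.0173), and without Top3b-Y332F-eGFP sample 3 they were 1.08, 0.82 and 0.72 and not called (limma adjusted p 0.0819, 0.0531 and 0.0915).

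RpL35, placed at the exit of the nascent chain tunnel, and RpS27 were named after their values were seen. RpS27 had 5572, 5351 and 9380.1 in Top3b-Y332F-eGFP, against a lowest of 2660.0, a median of 3265 and a highest of 3848 in Top3b-eGFP. Its difference of 1.02 (SE 0.20, limma adjusted p 0.0056) held with any single sample left out. RpL35 had 5886, 5721 and 10996, against 2526, 3732 and 4864 in Top3b-eGFP, a difference of 0.97 (limma adjusted p 0.012) that was 0.67 and not called without Top3b-Y332F-eGFP sample 3. RpS15Aa, of the small subunit, had 4376, 4429 and 8001, against 2437, 3276 and 4649.9 in Top3b-eGFP, so that the groups overlapped. Its difference of 0.69 (limma adjusted p 0.0402) was not called in 7 of 9 fits that left out a sample, all but those without Top3b-eGFP sample 2 or 6, at values from 0.41 to 0.83.

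RpL3, which helps to form the peptidyl transferase centre, stood at the other end and was singled out for that after its values were seen. It had 13374, 13779 and 22249.8 in Top3b-Y332F-eGFP, against a lowest of 19329, a median of 30562 and a highest of 47576 in Top3b-eGFP. The groups overlapped through Y332F sample 3, and the log2 difference of -0.88 was not called (SE 0.35, limma adjusted p 0.0709). It was called without Top3b-eGFP sample 3 (-0.99, limma adjusted p 0.0490) and after quantile normalization (-0.68, limma adjusted p 0.0122). The other members not called that are reported here, 21 in number, lay between RpLP1 at -0.57 and RpS29 at 0.83.

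**Figure D5:**
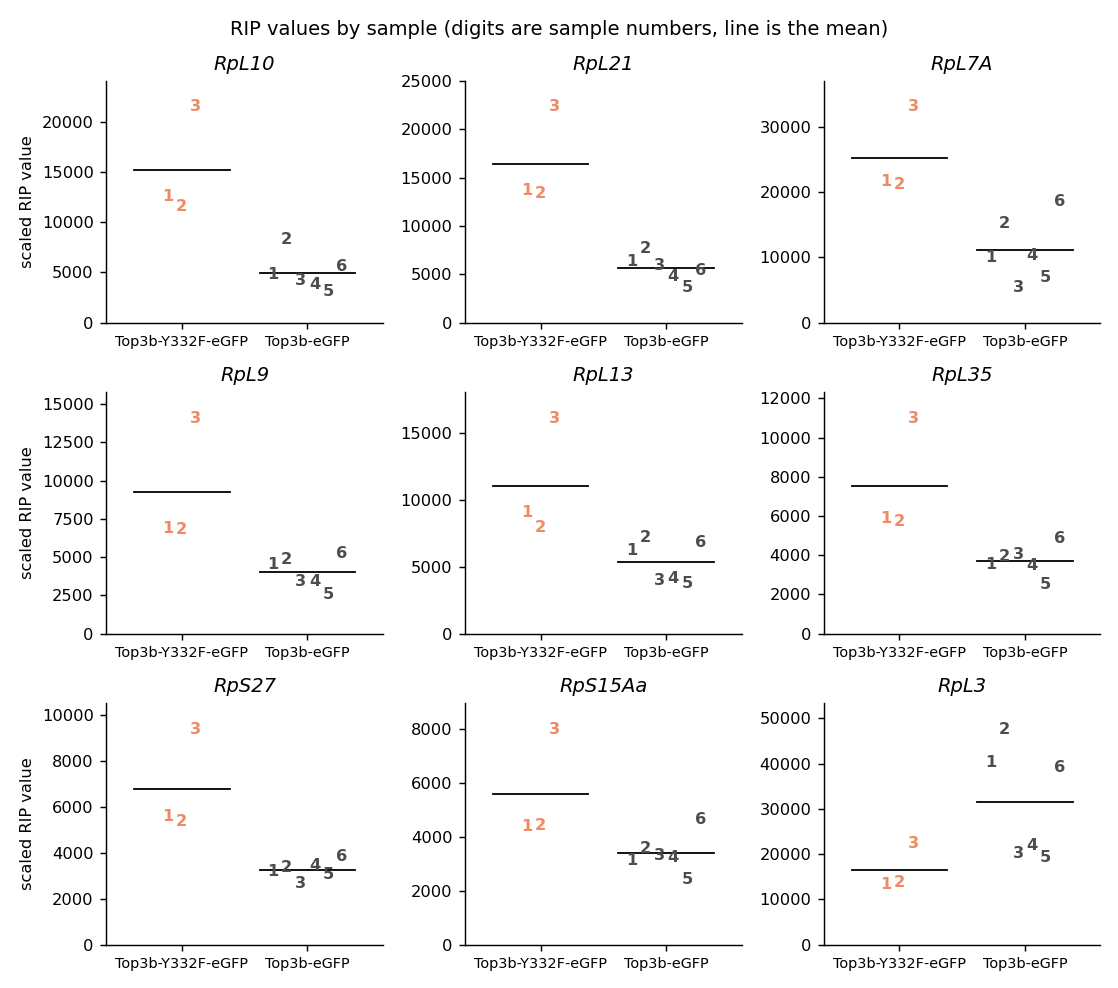
Scaled RIP value per sample (y axes from 0) of the 8 called members and RpL3 in Top3b-Y332F-eGFP and Top3b-eGFP. Digits give the sample number and lines the mean; sample 3 is the highest of the Y332F samples in every panel.

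Testing single transcripts gave fewer calls. Of the 64 transcripts of members, 3 were called higher and 0 lower, beside 0.265% of all transcripts called higher and 0.489% lower. They were FBtr0333910 of RpL10, FBtr0304693 of RpS27 and FBtr0085961 of RpL21, all just under the threshold (limma adjusted p 0.0476, 0.0486 and 0.0486). FBtr0333910 held 18.2 ± 5.44% of the RpL10 value in Top3b-Y332F-eGFP (SD, n = 3) and 14.8 ± 2.60% in Top3b-eGFP (SD, n = 6). FBtr0299869 and FBtr0299870 of RpL10 just missed the threshold (limma adjusted p 0.0550 and 0.0502). In 24 of the 31 genes every listed transcript had a log2 difference above 0, and the share over all genes is not given here. The gene values are sums of these same transcripts, so that count is not separate from them. For RpL21 the leading transcript, FBtr0085961, held 88.4 ± 2.02% of the gene's RIP value in Top3b-Y332F-eGFP (SD, n = 3) and 87.7 ± 7.19% in Top3b-eGFP (SD, n = 6), so its share did not differ beyond the spread. For RpS27, FBtr0304693 held 91.7 ± 0.453% in Top3b-Y332F-eGFP (SD, n = 3) and 84.0 ± 6.70% in Top3b-eGFP (SD, n = 6), again overlapping. For RpL9 the share of FBtr0340226 was 67.0 ± 11.4% in Top3b-Y332F-eGFP (SD, n = 3) and 53.9 ± 17.5% in Top3b-eGFP (SD, n = 6), with overlapping ranges.

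Total RNA of Y332F embryos, a separate set of samples, showed no called rise of the mRNAs that were higher in RIP. RpL10 had 545, 565 and 787 CPM in Y332F, against 624, 586 and 694 CPM in wild type, which differed by -0.01 on the log2 scale (edgeR adjusted p 0.979, SE 0.15). The total RNA values of RpL7A, RpL9, RpL13, RpL35, RpS27 and RpS15Aa in Y332F lay between -0.18 and 0.01, none of them called, while RpL21 was at -0.31. As a share of the whole RIP table the 31 members made up 13.5 ± 4.17% in Top3b-Y332F-eGFP (SD, n = 3) and 9.72 ± 2.14% in Top3b-eGFP (SD, n = 6), with overlapping ranges. Among the same genes in total RNA they took 5.71 ± 0.0471% of the counts in Y332F and 6.59 ± 0.699% in wild type (SD, n = 3 each). RIP and total RNA were normalized separately, so the shares and levels given for each cannot be read as enrichment in RIP. RpL7-like had 815, 759 and 1112 in Top3b-Y332F-eGFP and 469 to 925 in Top3b-eGFP. In total RNA it had 0 to 2 counts in any sample, and it overlaps CG34164, which had 0 counts in all 12.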

How the data were processed

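Embryo total RNA (12 samples) and RIP (9 samples) libraries came from Trizol extracts and the Lexogen CORALL kit for total RNA, per the labels' protocols. Deposited by the authors were raw counts for each gene and, for RIP, a normalized signal per transcript whose scaling is not given in the sources used here. The submitters' processing notes name bcl2fastq, HISAT2, featureCounts and DESeq2; the build and strand setting are not given in the sources used here, so no coordinates are printed. A further 3 columns of RIP values fit the labels of none of the samples and were left aside. No total RNA sample was a copy of another.

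The count test was the quasi-likelihood F test of edgeR 4.0.16, run in R 4.3.3 (filterByExpr with a minimum count of 10, TMM, all 12 samples, genotype only), with Benjamini-Hochberg adjustment over 10238 features. The SE was taken as the log2 fold change divided by the square root of F. RIP values were summed per gene, scaled by median ratio and tested with limma 3.58.1 (trend) on log2(value + 1), keeping genes that averaged 10 or more; this scale understates changes of low genes. Low RIP values were not whole multiples of a common step, so depth is unknown. Intervals cover counting error only. Both tests were checked on simulated data. Figures used matplotlib 3.10.9.

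The members, gene lists and tests were chosen with earlier results of these data known. Named were the 5 largest rises and falls among called members per comparison with wild type (mean of at least 1 CPM) and in RIP, 1 of each between mutants, the member with the smallest p, members with paralogs, and up to 3 genes per related list. Alternatives were other scalings and filters, DESeq2 1.42.0, the compared groups alone, a replicate block, a late marker covariate, RIP pseudocounts of 0.5 and 10, subsets of RIP samples, and each sample left out in turn. Symbols came from a supplied FlyBase table (99.6% of gene IDs matched), and overlaps from the RefSeq table of Release 6. Values of 3 members enter the counts but are not reported here.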

Additional observations from a re-analysis of the deposited data

Results flagged for a closer look

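In the 6 Top3b-eGFP samples, 2 of 31 RIP values tested had a sample that stood apart from the other 5, each time sample 6 as the highest. The gap to the next sample, as a fraction of the whole range, was 0.681 for RpLP1 and 0.701 for RpS3A, above the critical value of 0.625. Chance alone marks about 1 in 20 such groups. RpLP1 stood at 10226 in sample 6 and at 2977 to 5287 in the others.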

How the results depend on the processing

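Where a cause is not evident from the setting, it was not tested. Except for the covariate, shares of all features called under other settings or with a sample left out are not given here. For Top3b26 against wild type, the number of called members moved from 11 to 27 with total counts, 30 with a mean of at least 50 counts, 18 with the replicate block, 23 with the compared groups alone, 25 with DESeq2 and 0 with the late marker covariate (edgeR, 10 at an unadjusted p under 0.05), and the median moved to -0.19, -0.19 and -0.18 with total counts, the 50-count filter and the covariate. For Y332F it moved from 10 to 19 with total counts (median -0.16), 6 without a filter, 6 with the groups alone and 2 with the covariate. For delRGG it moved from 3 to 1 with the groups alone and 8 with DESeq2. For delRGG against Top3b26 the covariate gave 2, and for delRGG against Y332F the count was 0 by edgeR with total counts, no filter, the 50-count filter or the groups alone (1, 4, 1 and 2 at an unadjusted p under 0.05). RIP calls moved from 8 to 3 unscaled, 5 with Top3b-eGFP samples 1 to 3 only, 3 with the replicate block and 3 over single transcripts; 5 remained without the 2 samples of the other column naming, an alternative chosen after seeing the data. RpL28 in Top3b26 turned to 0.0226 with the covariate (edgeR adjusted p 0.961), the single reversal among calls.

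Leaving out each sample in turn gave 6 to 14 calls in Top3b26 (median -0.11 to -0.0012), 4 to 10 in Y332F (-0.12 to 0.00), 2 to 3 in delRGG (-0.12 to -0.05), 2 to 5 for Y332F against Top3b26, 3 to 10 for delRGG against Top3b26, 0 to 3 for delRGG against Y332F, and 3 to 10 in RIP (0.13 to 0.60). Mean shares of counts ran from 6.20 to 6.40% in Top3b26, 6.49 to 6.51% in Y332F, 6.40 to 6.73% in delRGG and 6.89 to 7.46% in wild type.

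Replicate numbers are shared between groups but did not pair the samples: correlations of same-numbered deviations ran from -0.64 to 0.60. The replicate block gave 18, 12 and 3 calls in Top3b26, Y332F and delRGG, 4, 5 and 1 between mutants, and 3 in RIP.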
